A study of Mus musculus with 50 samples.

Results

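Whole spleens of female wild-type BALB/c mice were examined 0.5 h after an intraperitoneal injection of 400 µg of CpG ODN (4 arrays). Untreated spleens of such mice (6 arrays) were set beside them, which makes 10 of the 50 two-colour arrays of the series. These 10 arrays were taken by their titles, and neither the age of the mice nor any pooling of animals is given in the sources used here. The CpG ODN was an equimolar mixture of the phosphorothioate oligodeoxynucleotides 1555 and 1466. BALB/c spleens taken 1 h and 3 h after the same injection (4 arrays each) served to date the response, and 34 BALB/c arrays in all shared the estimate of the spread. Each value is a log2 ratio of spleen RNA, labelled with Cy5, over Universal Mouse Reference RNA, which carried Cy3, with the array median set to 0. Several tissues and cell types of the mouse were pooled in that reference, so a ratio describes a gene relative to that pool and ratios of different genes are not levels to be set against each other. A control ODN was examined 3 h after injection and not at 0.5 h, so effects of the injection, of the phosphorothioate backbone and of the CpG motif cannot be told apart at 0.5 h.

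CpG DNA is sensed by Toll-like receptor 9 (TLR9), which sits in endosomes of B cells, plasmacytoid dendritic cells and, in the mouse, other myeloid cells. The receptor signals through the adaptor MyD88 to the kinases of the NF-kB and MAP kinase pathways. The first genes to be transcribed after such a signal, called immediate early genes, need no new protein; they encode transcription factors, inhibitors that end the signal, and a few chemokines and cytokines whose messages are short-lived. Interferon-stimulated genes come later, because interferon must first be made and must act on its receptor.

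The CpG and control mixtures differ in the number of CG dinucleotides, and 1 control ODN keeps a CG. The injected sequences are therefore shown with each CG in capitals. Each is written 5′ to 3′.
CpG ODN 1555: gctagaCGttagCGt
CpG ODN 1466: tcaaCGttga
control ODN 1612: gctagatgttagCGt
control ODN 1471: tcaagcttga
ODN 1555 is 15 bases long and holds 2 CG, and ODN 1466 is 10 bases long and holds 1 CG. Control ODN 1612 keeps 1 CG, and control ODN 1471 holds 0.

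The ratios ran the same way on all arrays, and the 10 arrays correlated with one another at Pearson's r of 0.784 or more over the probes. Among the 4 spleens taken at 0.5 h, replicates 1 and 2 resembled each other most (r = 0.952), while the other pairs lay between 0.86 and 0.891. B cell markers averaged between 3.05 and 3.66 on the 0.5 h arrays and between 3.10 and 3.56 on the untreated arrays, above the reference pool on each array. Genes of the pancreas, which touches the spleen, averaged 6.04, 5.89, 5.49 and 0.37 in replicates 1 to 4 at 0.5 h. In untreated spleens they averaged 0.42 to 5.61 (median 3.48), so arrays of both groups differed in how much of this signal they held. In limma 0 of the 16 pancreas genes passed the test at 0.5 h, which is near the 0.256% of all genes and no result about the list. Their median change was 0.97, and -0.54 with replicates 3 and 4 alone, and their part in other results was not tested.

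At 0.5 h the spleen showed a small and almost entirely upward response. Of 15264 named genes tested, 39 differed from untreated spleen at an adjusted p under 0.05, which is 0.256% of the genes. The 38 genes that rose (0.249%) were led by the chemokine Cxcl2, the transcription factor Fos, the signalling inhibitor Rgs1, the nuclear receptor Nr4a1 and the cytokine Il1b. The only gene that fell (0.00655%) was Tas2r130, which is named as a bitter taste receptor. Of the genes that rose, 31 were at least 2-fold and 13 at least 4-fold higher. In 35 of them every 0.5 h array lay above every untreated array. The genes were called on these same arrays, so this is largely built in and is a description. Among the 14154 genes measured on all 10 arrays, 2.09% did so and 0.699% had every 0.5 h array below every untreated array. Values of Hs3st1, Ier3 and Cebpb overlapped between the groups.

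**Figure D1:**
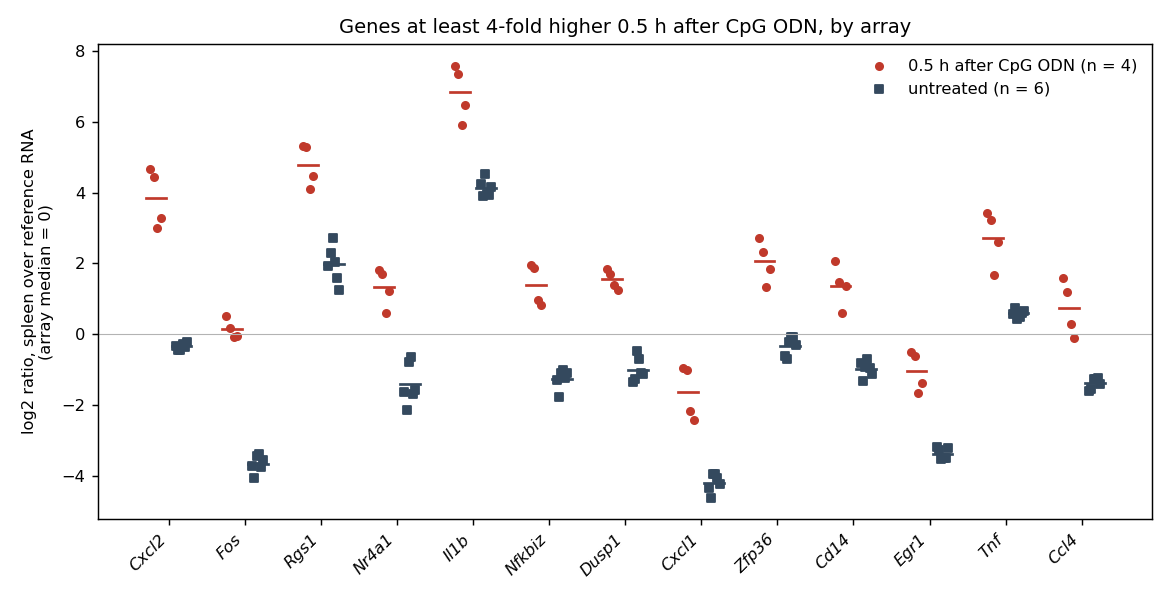
Log2 ratio of spleen over reference RNA (array median at 0, vertical axis) of the genes at least 4-fold higher at 0.5 h, with a point per array and a line at the group mean, for the 4 spleens taken 0.5 h after CpG ODN (red circles, left) and the 6 untreated spleens (blue squares, right). For each of these 13 genes all 4 red points lie above all 6 blue points, which is largely built in, because the genes were called on these arrays.

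The size of the response differed among the 4 treated spleens. An average was taken over 35 of the 38 genes that rose, those measured on all 34 BALB/c arrays. Cxcl1, Egr2 and Map3k8 are not among them, so this set differs from the 35 genes without overlap. The mean log2 ratio was 1.97, 1.72, 0.97 and 1.27 in replicates 1 to 4 at 0.5 h. In the 6 untreated spleens it lay between -0.42 and -0.03. Replicates 1 and 2 were thus the higher pair, and replicate 3 was the lowest. The number of genes that rose was 21 without replicate 1, 22 without replicate 2, and 12 with replicates 3 and 4 alone (13 called in all, 1 of them lower). Within the stretch of adjacent array numbers that holds all 4 treated and 5 of the untreated spleens, 26 genes were called, all higher, and 23 of them are among the 39. The 12 that passed with replicates 3 and 4 alone were Cxcl2, Fos, Rgs1, Nr4a1, Nfkbiz, Dusp1, Cxcl1, Zfp36, Cd14, Egr1, Ccl4 and Tnfaip3, and each of them passed in every alternative computed.

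**Figure D2:**
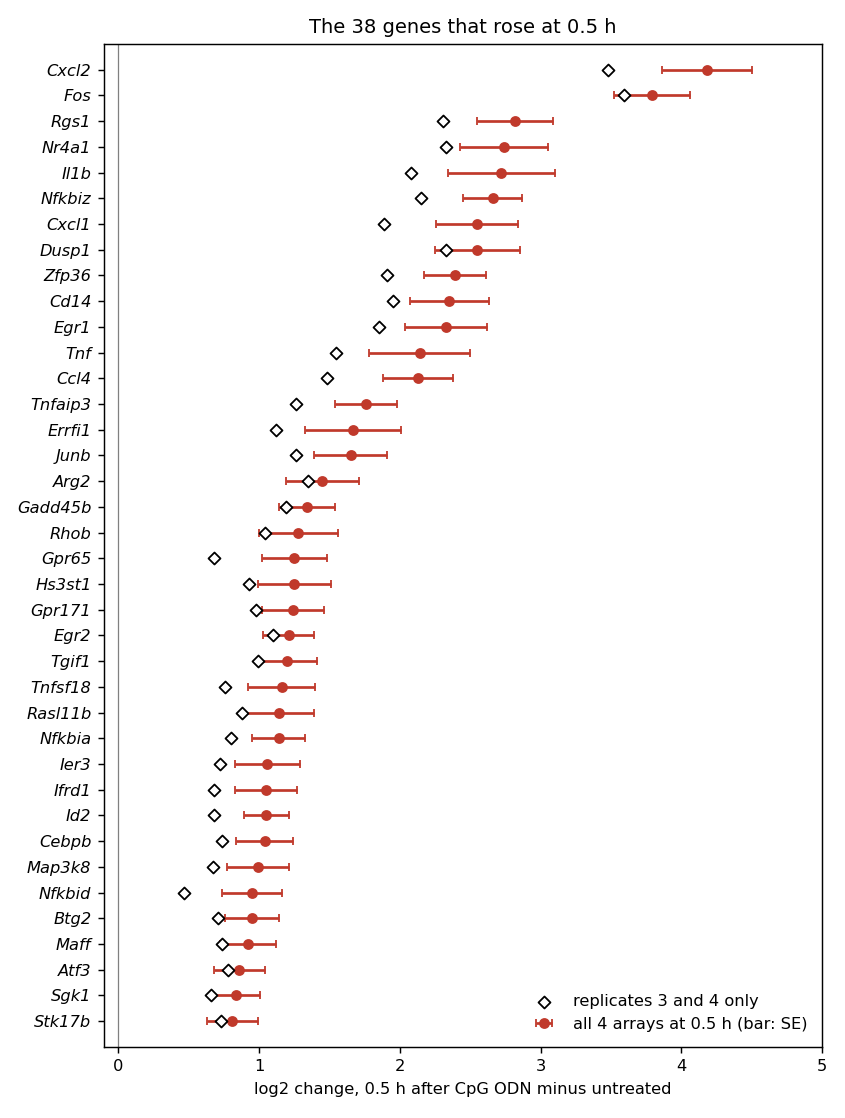
Log2 change (0.5 h after CpG ODN minus untreated, horizontal axis) of the 38 genes that rose, with all 4 arrays at 0.5 h (red points, bars are standard errors) and with replicates 3 and 4 alone (open diamonds). All diamonds lie above 0 and left of the red points, from 3.59 for Fos to 0.47 for Nfkbid.

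Transcription factors of the AP-1 family, dimers that bind DNA soon after many stimuli, formed the first group. Of 13 tested AP-1 and related genes, 4 rose (Fos, Junb, Maff and Atf3), beside 0.249% of all genes, and none fell. The median change was 0.26, beside 0.073 for all genes. Fos had log2 ratios of 0.50, 0.16, -0.09 and -0.04 at 0.5 h, against -4.06 to -3.38 (median -3.65) in untreated spleens. The treated spleens agree closely and sit more than 3 log2 units above the highest untreated one. The change was 3.79 ± 0.27 (SE), or 13.8-fold (adjusted p = 5.17e-11). Junb, a partner of Fos, was higher by 1.65 ± 0.26 (3.13-fold, adjusted p = 0.000262), with replicate 3 (-0.73) well below the other treated spleens (0.44 to 0.70) but above the highest untreated one (-0.89). Atf3, a repressor induced by stress and by Toll-like receptors, had a log2 change of 0.86 ± 0.18. Maff, a small Maf protein, had a change of 0.92 ± 0.20, while another probe of Maff gave 0.13; Maff passed in 11 of 23 alternatives.

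Early transcription factors outside AP-1, together with other classical early genes, held the most calls of any list. Of 25 tested, 7 rose (Rgs1, Nr4a1, Egr1, Rhob, Egr2, Ier3 and Btg2), beside 0.249% of all genes. The median change was 0.60, beside 0.073 for all genes. Nr4a1, an orphan nuclear receptor induced within minutes of receptor signalling in lymphocytes and macrophages, had log2 ratios of 1.80, 1.69, 0.59 and 1.22 at 0.5 h, against -2.13 to -0.65 (median -1.61) untreated. The groups were apart although both were spread over more than 1 log2 unit, and the change was 2.74 ± 0.31 (6.70-fold, adjusted p = 7.95e-07). The zinc finger factor Egr1 had -0.51, -0.61, -1.67 and -1.38 at 0.5 h and -3.54 to -3.20 (median -3.39) untreated. Untreated spleens were nearly equal, and replicates 1 and 2 stood about 1 log2 unit above replicates 3 and 4; the change was 2.33 ± 0.29 (5.03-fold, adjusted p = 4.43e-06). Its relative Egr2 was even across the treated spleens (0.96, 0.67, 0.46 and 0.72, against -0.85 to -0.22 untreated) and was 2.32-fold higher. Rgs1, a protein that shortens signals from chemokine receptors and other G protein-coupled receptors, had 5.31, 5.28, 4.11 and 4.46 at 0.5 h against 1.25 to 2.73 (median 1.97) untreated. No treated spleen came near the untreated range, and a second probe of Rgs1 gave 2.67 beside the 2.82 ± 0.27 of the first. Rhob, a small GTPase of endosomes, and Btg2, an anti-proliferative factor, were 2.43-fold and 1.93-fold higher. Ier3, an early gene of stress and survival signalling, had -2.35, -2.55, -3.31 and -2.93 at 0.5 h against -4.23 to -3.15 (median -3.92) untreated, so replicate 3 fell inside the untreated range (2.08-fold, adjusted p = 0.0275). Ier3 passed in 11 of 23 alternatives and Rhob in 14 of 23.

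Inhibitors of the MAP kinase and mRNA stability pathways rose singly, where 0.256% of all genes passed. Dusp1, a phosphatase that inactivates MAP kinases, was the only one of 14 tested MAP kinase phosphatases and relatives to pass (median change 0.17). Its log2 ratios were 1.84, 1.71, 1.40 and 1.26 at 0.5 h and -1.36 to -0.48 (median -1.11) untreated. All treated spleens were positive and all untreated ones negative, with a change of 2.55 ± 0.30 (5.87-fold, adjusted p = 1.80e-06). Dusp6 came next, at 0.74 ± 0.23 without passing (adjusted p = 0.379), although its groups did not overlap. Zfp36, which encodes the protein tristetraprolin that directs cytokine mRNAs to decay, was likewise the only one of 12 mRNA decay factors to pass (median 0.15, and -0.01 with replicates 3 and 4 alone). It had 2.73, 2.33, 1.32 and 1.84 at 0.5 h, against -0.70 to -0.07 (median -0.26) untreated, and was 5.23-fold higher (2.39 ± 0.22, adjusted p = 5.41e-09). Tob1, the next of that list, had 0.59 ± 0.28 with overlapping groups.

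The NF-kB genes that rose were inhibitors and other feedback regulators of the pathway. Of 18 tested NF-kB genes, 4 passed (Nfkbiz, Tnfaip3, Nfkbia and Nfkbid), beside 0.256% of all genes, and the median change was 0.43. Nfkbiz, an atypical IkB protein that works in the nucleus, had 1.95, 1.86, 0.97 and 0.82 at 0.5 h, against -1.78 to -1.02 (median -1.17) untreated, a change of 2.66 ± 0.21 (6.32-fold, adjusted p = 1.20e-10). Tnfaip3, the ubiquitin-editing enzyme A20, had 2.85, 2.52, 1.62 and 1.72 against 0.18 to 0.61 (median 0.39). For both genes replicates 1 and 2 were the higher pair and no treated spleen entered the untreated range. Tnfaip3 was 3.40-fold higher (1.76 ± 0.22, adjusted p = 4.61e-06). Nfkbia, the IkB-alpha that holds NF-kB in the cytoplasm and is made anew when NF-kB enters the nucleus, had 2.00, 2.17, 1.34 and 1.48 at 0.5 h against 0.15 to 1.17 (median 0.44) untreated. Here the lowest treated spleen lay just above the highest untreated one, and the change was 1.14 ± 0.19 (2.21-fold, adjusted p = 0.000941). Nfkbia passed in 20 of 23 alternatives. It did not pass with the 10 arrays alone, within the array numbers that hold the treated spleens, or with replicates 3 and 4 alone. Nfkbid, another nuclear IkB protein, had the smallest change of the 4 (0.95 ± 0.21, adjusted p = 0.0275). It was 0.47 with replicates 3 and 4 alone and passed in 10 of 23 alternatives.

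Chemokines and cytokines of the first wave were few in number and large in size. Of 14 CXC chemokines 2 rose, beside 0.249% of all genes (median change 0.39, and 0.11 with replicates 3 and 4 alone). They were Cxcl2 and Cxcl1, ligands of the receptor Cxcr2 that draw neutrophils. Cxcl2 had log2 ratios of 4.66, 4.43, 2.99 and 3.28 at 0.5 h, against -0.44 to -0.21 (median -0.34) untreated. The untreated spleens spanned less than 0.3 log2 units and every treated one exceeded them by 3.20 or more, which gave the largest rise of all genes called (4.18 ± 0.32, 18.2-fold, adjusted p = 9.08e-11). Cxcl1 had -0.95, -1.02, -2.18 and -2.43 against -4.62 to -3.95 (median -4.15), and was 5.86-fold higher (2.55 ± 0.29, adjusted p = 1.10e-06). Cxcl10, a chemokine for activated T cells, had 3.46, 2.97, 2.93 and 2.99 at 0.5 h against 1.60 to 2.06 untreated, without overlap, but did not pass (1.20 ± 0.28, adjusted p = 0.0654).

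Ccl4, a chemokine made by macrophages and lymphocytes, was the only one of 19 CC and other chemokines to pass (median 0.25), beside 0.256% of all genes. Its log2 ratios were 1.60, 1.18, 0.29 and -0.10 at 0.5 h, against -1.61 to -1.24 (median -1.35) untreated. The treated spleens varied by more than 1.5 log2 units while the untreated ones were close together, and the change was 2.13 ± 0.25 (4.39-fold, adjusted p = 1.74e-06); a second probe gave 1.21. Ccl3, its neighbour in function, had -2.44, -2.58, -2.47 and -2.65 against -3.76 to -3.07 untreated, again without overlap, with a change of 0.90 ± 0.24 that did not pass (adjusted p = 0.196).

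Of 23 inflammatory cytokines 2 rose (median 0.28), beside 0.249% of all genes. They were Il1b and Tnf, which activate endothelium and leukocytes. Il1b had log2 ratios of 7.59, 7.36, 5.92 and 6.47 at 0.5 h, against 3.90 to 4.52 (median 4.05) untreated, so that the message was well above the reference pool already without treatment. It was 6.59-fold higher (2.72 ± 0.38, adjusted p = 4.22e-05). Tnf had 3.41, 3.23, 1.67 and 2.59 against 0.44 to 0.75 (median 0.58), with replicate 3 the lowest of the treated spleens and still clear of the untreated ones. It was 4.41-fold higher (2.14 ± 0.36, adjusted p = 0.000831), but with replicates 3 and 4 alone neither Tnf (1.55, adjusted p = 0.529) nor Il1b (2.08, adjusted p = 0.0764) passed. Il12b, a subunit of interleukins 12 and 23, had 1.08, 1.58, 0.78 and 0.90 at 0.5 h and 0.12 to 0.76 untreated, and Il10, which restrains macrophages, changed by 0.95 ± 0.24; neither passed (adjusted p = 0.182 and 0.104).

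Among components of TLR9 signalling, Cd14 and Map3k8 rose, while Tlr9 and Myd88 did not pass. These are 2 calls in 22 tested genes, beside 0.256% of all genes, and the median change was 0.25 (0.08 with replicates 3 and 4 alone). Cd14, a co-receptor known for binding lipopolysaccharide and also placed in the uptake of CpG DNA, had 2.06, 1.48, 0.59 and 1.36 at 0.5 h, against -1.33 to -0.69 (median -0.94) untreated, and was 5.10-fold higher (2.35 ± 0.28, adjusted p = 2.73e-06). Map3k8, the kinase Tpl2 that links the receptor to ERK, was 1.99-fold higher (adjusted p = 0.03) but passed in only 8 of 22 alternatives. Tlr9 itself had 0.05, 0.54, 0.12 and 0.16 at 0.5 h and 0.13 to 0.55 (median 0.21) untreated, a difference of -0.04 ± 0.14. The groups lay over each other, as did those of Myd88 (0.49 ± 0.21, adjusted p = 0.51) and of Unc93b1 (-0.32 ± 0.38), the chaperone that brings the receptor to endosomes.

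Beside 0.249% of all genes, stress and glucocorticoid-responsive genes gave 4 rises among 20 (median 0.11). One of them is Dusp1; the others are Errfi1, an inhibitor of epidermal growth factor receptors, Gadd45b, which regulates stress kinases, and Sgk1, a kinase of ion transport and survival. Gadd45b was the most even of them, with -0.10, 0.17, -0.40 and -0.15 at 0.5 h against -1.70 to -1.08 (median -1.56) untreated, a change of 1.34 ± 0.20 (2.54-fold, adjusted p = 0.000212). Errfi1 had 0.03, 0.03, -1.52 and -0.64 against -2.52 to -2.02 (3.19-fold, adjusted p = 0.0143), so replicates 3 and 4 differed from replicates 1 and 2 by a wide margin. Another probe of Errfi1 gave -0.17, and the other probes of Sgk1 gave -0.12 and 0.53 beside 0.84 ± 0.17, so both genes depend on the probe chosen. Heat shock genes had a median of 0.23 over 12, with 0 calls in limma; at an unadjusted p under 0.05 the number was 0, where 9.76% of all genes stood.

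The 12 called genes outside the lists were of mixed function. Arg2, a mitochondrial arginase, had 5.60, 4.64, 4.52 and 5.31 at 0.5 h against 2.85 to 4.32 (median 3.56) untreated, and was 2.74-fold higher (adjusted p = 0.00279). Gpr65, a proton-sensing receptor of leukocytes, was 2.37-fold higher (1.25 ± 0.23), with replicates 1 and 2 at 5.19 and 4.83 and replicates 3 and 4 at 3.90 and 3.87. Gpr171, a G protein-coupled receptor of lymphocytes, was 2.35-fold higher and apart from the untreated spleens in every replicate. Id2, an inhibitor of basic helix-loop-helix factors, had 1.51, 1.31, 0.73 and 0.59 against -0.07 to 0.12, a change of 1.05 ± 0.16 (adjusted p = 0.000303). Cebpb, a transcription factor of the myeloid inflammatory response, was 2.06-fold higher, with replicate 3 (-0.60) inside the untreated range (-1.37 to -0.55). Tgif1, a repressor of transforming growth factor beta signalling, rose 2.30-fold by the probe used, while 2 others gave -0.14 and 0.34. Tnfsf18, the ligand of the receptor GITR, Hs3st1, an enzyme of heparan sulfate, Rasl11b, a small GTPase, Ifrd1, a transcriptional co-regulator, and Stk17b, a kinase of lymphocytes, had log2 changes between 0.81 and 1.25. Rasl11b passed in 13 of 23 alternatives, Hs3st1 in 14, Tnfsf18 in 15, Arg2, Cebpb and Ifrd1 in 17 and Gpr65 in 18. Stk17b passed in 7 of 23 alternatives and Tas2r130 (log2 change -1.21 ± 0.27, adjusted p = 0.0476) in 6 of 22.

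**Figure D3:**
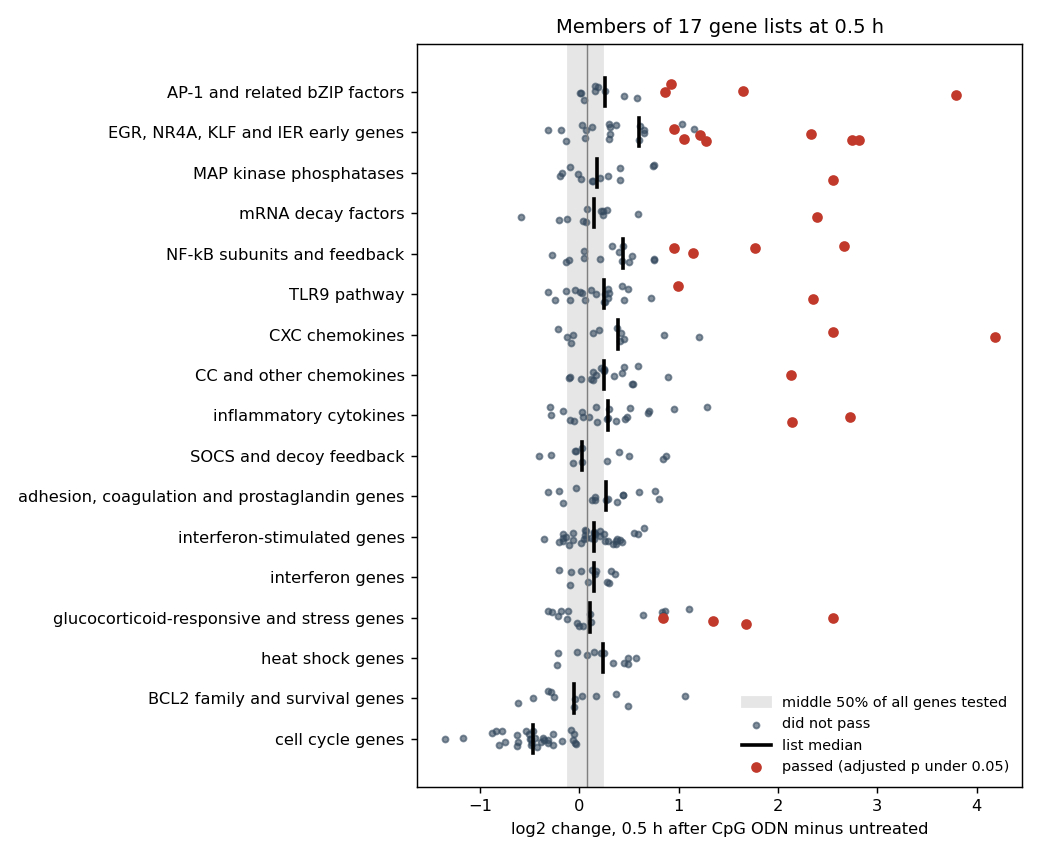
Log2 change (0.5 h after CpG ODN minus untreated, horizontal axis) of each tested member of the pathway lists (rows), with genes that passed in red, others in blue, a black bar at the list median and a grey band over the interquartile range of all genes. Red points appear in the rows of early transcription factors, inhibitors, chemokines, cytokines and stress genes, and none in the interferon, SOCS, adhesion, heat shock, BCL2 or cell cycle rows.

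Promoters of the genes that rose were read from RefSeq (mouse build GRCm38.p6, from 250 bases before to 50 bases after each start), where 30 of the 38 genes had an entry. They are shown for 4 genes, picked because these hold the sites that NF-kB, CREB and their relatives are known to bind. Il1b, Tnf, Gadd45b, Rhob and Id2, among others, held no match to any motif counted below. Rgs1, Nfkbiz, Cd14, Egr1, Ccl4, Arg2, Gpr171 and Map3k8 had no entry. Capitals mark the NF-kB site (searched by its usual degenerate form), the cyclic AMP response element TGACGTCA and its shorter form TGACG, which is also counted within the whole element; both strands were searched.
Cxcl2, chr5:90903649-90903948, plus strand: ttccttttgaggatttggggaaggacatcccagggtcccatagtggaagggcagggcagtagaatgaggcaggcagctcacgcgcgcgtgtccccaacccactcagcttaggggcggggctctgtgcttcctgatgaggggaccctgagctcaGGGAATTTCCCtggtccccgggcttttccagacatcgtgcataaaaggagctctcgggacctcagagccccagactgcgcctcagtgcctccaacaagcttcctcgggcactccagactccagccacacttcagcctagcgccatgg
Nfkbia, chr12:55492598-55492897, minus strand: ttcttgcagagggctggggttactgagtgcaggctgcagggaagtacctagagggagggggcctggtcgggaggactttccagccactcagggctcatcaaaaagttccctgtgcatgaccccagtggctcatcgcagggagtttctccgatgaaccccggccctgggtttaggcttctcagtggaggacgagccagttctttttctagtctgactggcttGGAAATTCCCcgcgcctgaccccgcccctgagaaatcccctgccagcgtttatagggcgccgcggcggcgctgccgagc
Fos, chr12:85473640-85473939, plus strand: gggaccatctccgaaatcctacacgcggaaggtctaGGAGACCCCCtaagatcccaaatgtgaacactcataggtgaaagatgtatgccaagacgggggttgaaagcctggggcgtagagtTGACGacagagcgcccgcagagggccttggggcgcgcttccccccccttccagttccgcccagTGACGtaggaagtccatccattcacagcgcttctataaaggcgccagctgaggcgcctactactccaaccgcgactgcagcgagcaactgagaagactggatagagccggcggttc
Dusp1, chr17:26508423-26508722, minus strand: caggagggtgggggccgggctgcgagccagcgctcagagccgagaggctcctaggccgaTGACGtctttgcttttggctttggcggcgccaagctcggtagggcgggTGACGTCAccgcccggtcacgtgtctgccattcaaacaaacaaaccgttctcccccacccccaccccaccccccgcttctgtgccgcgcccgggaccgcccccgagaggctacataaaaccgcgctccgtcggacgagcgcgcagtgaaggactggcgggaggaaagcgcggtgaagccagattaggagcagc
In Cxcl2 the site is long enough to match at 2 overlapping positions, -97 and -96 from the start, and in Nfkbia it begins at -29. Fos holds an NF-kB match at -214 and the shorter form at -129 and -66, and Dusp1 holds 1 whole element. Over the 30 genes, 9 held an NF-kB match (30.0%, beside 5.14% of all 27025 genes in the table), namely Cxcl2, Fos, Nr4a1, Cxcl1, Tnfaip3, Nfkbia, Ier3, Nfkbid and Maff. The shorter form TGACG was found in 15 of the 30 (beside 23.0% of all genes) and the whole element in 5 (16.7%, beside 2.03%). The CArG box, bound by serum response factor, was found in 2 (6.67%, beside 1.81%), Zfp36 and Egr2, and the AP-1 site TGANTCA in 1 (3.33%, beside 8.97%), Tnfaip3. A gene counted where any of its windows matched. Several of the 30 genes, among them Sgk1, Tgif1, Egr2, Maff and Nfkbid, have more than 1 window, while all 27025 genes have 32851 windows. The number of windows per gene was not evened out. These shares describe letters in short windows and carry no test.

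Interferon-stimulated genes, whose products restrict viruses, had a median change of 0.14 over 34 at 0.5 h, beside 0.073 for all genes. The number called was 0 in limma, which is near the 0.256% of all genes and no result about the list; 2 had an unadjusted p under 0.05, beside 9.76% of all genes. The same background holds for the next 4 lists. Trim30a, a member of this group that restrains Toll-like receptor signalling, had the smallest p of the list and was 0.58 ± 0.19 higher (adjusted p = 0.448), with 3.08, 2.60, 2.61 and 2.94 at 0.5 h against 2.02 to 2.48 untreated. Interferon genes gave 0 calls among 12 (median 0.14, 1 at an unadjusted p under 0.05). Feedback genes of the SOCS and decoy receptor list gave 0 of 12 (median 0.02, 4 at an unadjusted p under 0.05), with Socs3, a brake on cytokine receptors, at 0.87 ± 0.26 from 3 treated spleens (adjusted p = 0.349). Adhesion, coagulation and prostaglandin genes gave 0 of 15 (median 0.26, 4 at an unadjusted p under 0.05), led by Icam1 at 0.60 ± 0.22 and Vcam1 at 0.80 ± 0.26, and the BCL2 family gave 0 of 12 (median -0.05, 4 at an unadjusted p under 0.05).

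Markers of leukocytes and stroma gave 0 calls in limma, near the background of all genes, and RNA of a whole organ cannot tell fewer cells of a type from less RNA per cell. Neutrophil markers had a median change of 0.51 over 17 genes, (0.33 with replicates 3 and 4 alone), and their mean was 2.64, 2.40, 1.82 and 2.82 at 0.5 h against 1.45 to 2.22 (median 2.12) untreated. Monocyte and macrophage markers had a median of 0.33 over 18 genes, NK cell markers 0.27 over 12, T cell markers 0.15 over 15, dendritic cell markers 0.15 over 15 and B cell markers 0.07 over 14. With replicates 3 and 4 alone these medians were 0.21, 0.03, 0.14, 0.08 and -0.17 in the same order, near 0 for NK cell markers and below 0 for B cell markers. Cd83, a dendritic and B cell activation marker, had 6.52, 6.28, 4.74 and 5.16 at 0.5 h against 3.26 to 4.45 (median 3.81) untreated, and just missed the threshold (1.84 ± 0.43, adjusted p = 0.0585). Cell cycle genes differed between the same pairs of treated spleens: their mean was -1.12, -1.54, 0.14 and 0.04 in replicates 1 to 4, against -0.36 to 0.14 (median -0.18) untreated. The median of the 32 cell cycle genes was -0.47 with 0 calls, and 0.26 with replicates 3 and 4 alone. Erythroid markers were likewise lower in replicates 1 and 2 than in replicates 3 and 4, with means of 3.04, 2.46, 3.68 and 3.92 at 0.5 h against 3.42 to 3.99 (median 3.60) untreated, and a median of -0.40 that was 0.17 with replicates 3 and 4 alone. Mki67, a marker of dividing cells, had -0.64 and -1.77 in replicates 1 and 2, 0.87 and 1.07 in replicates 3 and 4, and 0.47 to 2.53 untreated. The part of these differences between spleens in the larger rises of replicates 1 and 2 was not tested.

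**Figure D4:**
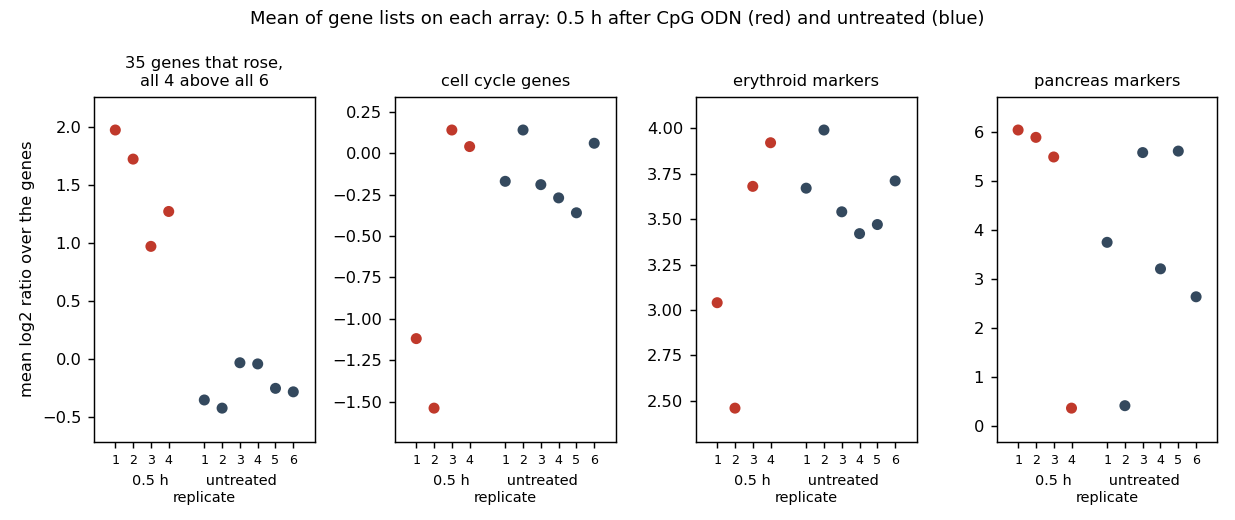
Mean log2 ratio (vertical axis) on each array of 35 genes that rose, of cell cycle genes, of erythroid markers and of pancreas markers. Points are replicates 1 to 4 at 0.5 h after CpG ODN (red, left) and untreated replicates 1 to 6 (blue, right). The 35 genes are those measured on all 34 BALB/c arrays, and the panel heading "all 4 above all 6" does not describe them. Replicates 1 and 2 are highest for the rising genes (1.97 and 1.72) and lowest for the cell cycle genes (-1.12 and -1.54) and erythroid markers.

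Between 0.5 h and 1 h the response widened. A direct comparison of 1 h with 0.5 h called 106 genes (0.694% of those tested), 98 higher (0.642%) and 8 lower (0.0524%) at 1 h. Of the 38 early genes, 9 were higher at 1 h than at 0.5 h and 0 lower; with the run of array numbers as a block, an alternative added after seeing the data, 12 were higher (0.635% of all genes called in either direction), 7 of them shared. The largest of these further rises were in Cxcl1 (2.66, adjusted p = 2.87e-06) and Ccl4 (2.62, adjusted p = 2.48e-07), followed by Maff (1.90) and Gadd45b (1.71). For Fos (0.32, adjusted p = 0.755), Egr1 (0.39) and Zfp36 (0.41) the difference between 1 h and 0.5 h did not pass. Genes that had not passed at 0.5 h stood out at 1 h, among them Socs3 (3.22 above 0.5 h, adjusted p = 7.25e-09), Ccl3 (2.91, adjusted p = 8.42e-09), Il12b (2.88, adjusted p = 3.71e-10), Cxcl10 (2.01) and Icam1 (1.89). The count of genes called between 1 h and 0.5 h depended on the treated spleens and the scaling: it was 65 without 0.5 h replicate 1, 70 without replicate 2, 55 without replicate 3, and 40 when all arrays were given the same spread.

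At 3 h the transcription factors Fos and Egr1, with Zfp36 and Btg2, were below their 0.5 h level, and Ccl4, Gadd45b, Maff, Nfkbiz and Map3k8 were above it. The comparison of 3 h with 0.5 h called 1893 genes (12.4%), 817 higher (5.35%) and 1076 lower (7.05%) at 3 h, and without 0.5 h replicate 1 it called 1178. No 3 h array belongs to the run of array numbers that holds the 0.5 h arrays, so time and run are told apart only through untreated and 1 h arrays, which occur in that run and in another that holds 3 h arrays. With run as a block, added after seeing the data, 406 genes were called (2.66%), 319 higher and 87 lower. Of the 38 early genes, 13 were lower and 7 higher at 3 h than at 0.5 h, and with run as a block 4 and 5, all of them among the 20. The 38 were chosen for high values on the same 0.5 h arrays, so a tilt towards lower values later is partly built in, and these counts are a description. The lower ones included Fos (-2.63, adjusted p = 7.09e-08), Egr1 (-2.22), Zfp36 (-1.93) and Btg2 (-1.54), which were -1.81, -1.91, -1.48 and -1.22 with run as a block and passed there. Nr4a1 (-2.34), Cxcl2 (-2.18) and Il1b (-1.57) were -1.46, -1.27 and -1.10 with run as a block and did not pass (adjusted p = 0.148, 0.299 and 0.561). The higher ones were Ccl4 (2.90, adjusted p = 1.45e-09), Gadd45b (1.71), Maff (1.20), Cd14, Map3k8, Nfkbiz and Rhob, the last 4 between 0.98 and 1.04; of these, Cd14 and Rhob did not pass with run as a block (adjusted p = 0.266 and 0.699). For Tnf (0.11), Nfkbia (0.25) and Dusp1 (-0.48) the difference did not pass, and for Tnf it was 1.45 with run as a block (adjusted p = 0.243). Interferon-stimulated genes, which gave 0 calls at 0.5 h, were higher at 3 h than at 0.5 h in 31 of 34 cases with a median difference of 2.15, and in 25 with run as a block (median 1.99).

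Seen over all times, which lie in different runs, the highest group mean fell at 0.5 h for 7 of the 38 genes (Rgs1, Hs3st1, Gpr171, Tnfsf18, Btg2, Sgk1 and Stk17b), at 1 h for 22 and at 3 h for 9, and at 9 h or later for 0. Against untreated spleen, Fos was 3.79 higher at 0.5 h, 4.11 at 1 h, 1.16 at 3 h and 0.45 at 9 h, the last without passing (adjusted p = 0.432). Cxcl2 was 4.18, 5.32, 2.00 and 0.85 higher at those times, and Il1b 2.72, 3.35, 1.15 and 0.47. Nfkbiz ran a longer course of 2.66, 3.80, 3.66 and 1.87, and Ccl4 one of 2.13, 4.75, 5.03 and 2.89. These comparisons all use the same 6 untreated arrays. In spleens taken 3 h after control ODN, 1 of the 38 genes, Cd14, differed from untreated spleen (1.09, adjusted p = 0.0476), beside 1.42% of all genes in that comparison. The control ODN arrays share no run with the untreated ones, so run and treatment cannot be told apart there.

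**Figure D5:**
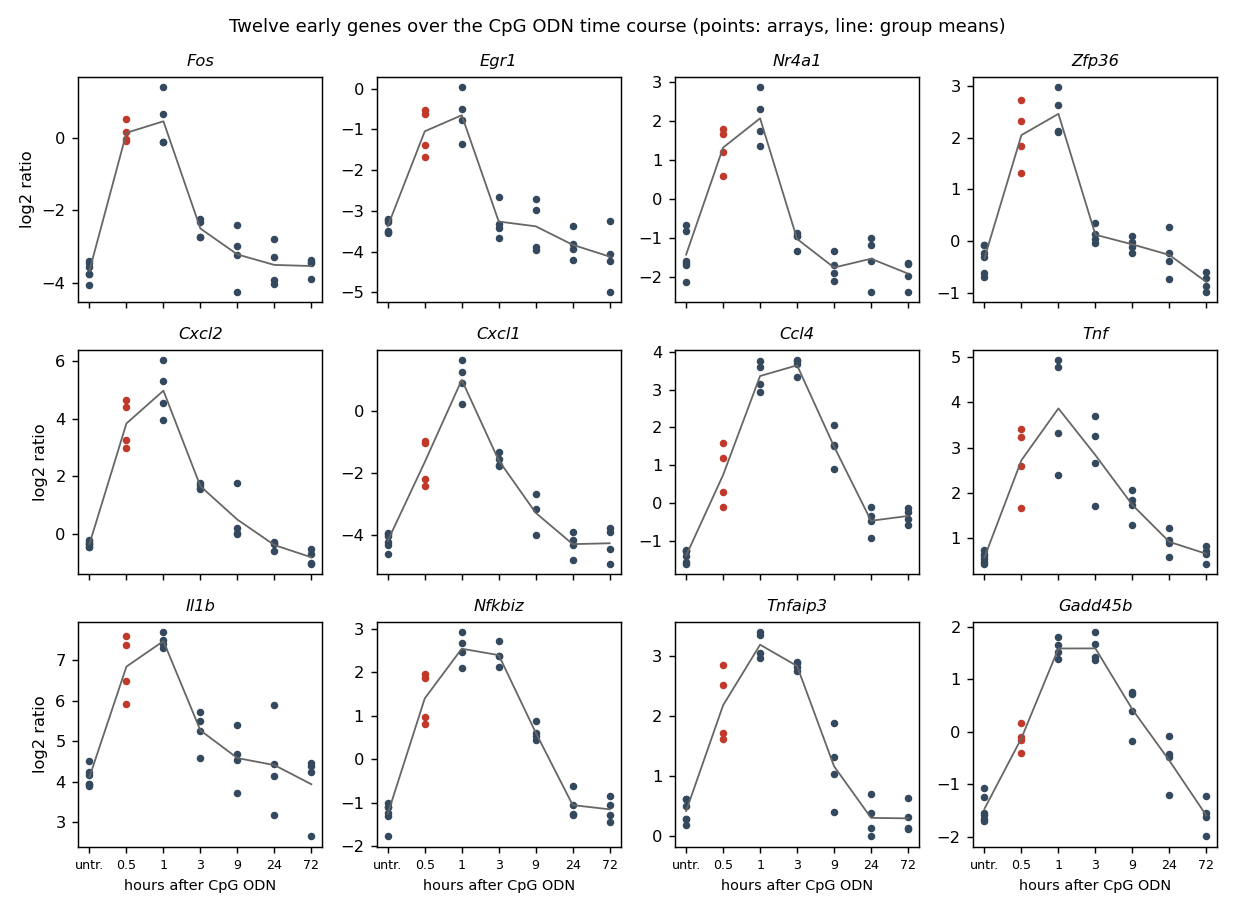
Log2 ratio of spleen over reference RNA (vertical axes, scaled per gene) in untreated spleens and at 6 times from 0.5 h to 72 h after CpG ODN (horizontal axis, even spacing), with a point per array, red at 0.5 h, and a line through group means. Fos, Egr1, Nr4a1, Zfp36, Cxcl2 and Il1b are high at 0.5 h and 1 h and far lower at 3 h, whereas Nfkbiz, Tnfaip3, Ccl4 and Gadd45b stay high at 3 h.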

How the data were processed

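Deposited log2 ratios set spleen RNA over reference RNA; per the series' design text, the authors subtracted background, removed flagged spots and spots dim in both channels, and applied lowess normalization within each array (BRB ArrayTools and mAdb). Spot intensities were not used here, so signal over background is unknown, and a shift of most genes one way would be removed by lowess. Per the labels, spleen RNA carried Cy5 throughout; the order in which the channels are listed differs for the 0.5 h arrays while the dyes do not, so no sign was turned. No genome build for the probes is given in the sources used here.

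Of 36607 probes, 30750 had values; 26926 carried 1 gene symbol, 203 several and 9478 none. Each gene was represented by its most completely measured probe (ties to the first listed), and other probes are named where they differed by over 1 log2 unit or gave under 0.5 times the change. Arrays were centred on their medians, genes present on over 0.7 of the 34 BALB/c arrays were kept (15264), and group means were compared with limma 3.58.1 in R 4.3.3 (lmFit, eBayes, Benjamini-Hochberg, threshold 0.05). The precision is limited by the number of arrays: the median SD per gene was 0.257 at 0.5 h and 0.24 untreated. The series text describes independent experiments per time point; whether each array is a separate mouse is not stated, so p-values cover only the spread among these arrays, which may be technical. The fit was also run on simulated data with known changes and independent spread for each gene. That simulation held no differences between runs or between replicates, so it does not bear on them.

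Named genes are all that passed at 0.5 h and the 4 members of smallest p in each list, of which the text gives a part; Unc93b1 was added after its values were seen. Members and lists were chosen with earlier results of these data known, and list counts and medians are descriptions. Runs (not stated to be batches) are stretches of adjacent database numbers in the array titles. Alternatives covered scaling, filters, probe choice, variance models, runs and leaving out arrays; runs in the later comparisons were added after seeing the data.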

Additional observations from a re-analysis of the deposited data

Results flagged for a closer look

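Of 136 groups of array values checked, 6 held a sample far from the others, and chance alone gives about 1 in 20. They were 0.5 h replicate 1 for Stk17b (4.80, others 4.39 to 4.45), untreated replicate 4 for Atf3 (-0.46, others -0.85 to -0.74), 0.5 h replicate 3 for the means of AP-1 genes (-0.48, others -0.04 to 0.00), adhesion genes (-0.21, others 0.09 to 0.14) and plasma cell markers (0.30, others 0.50 to 0.52), and 0.5 h replicate 4 for pancreas markers (0.37, others 5.49 to 6.04).

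The changes of 9 early genes differed between 1 h and 0.5 h by a direct limma test. The differences, 1 h minus 0.5 h on the log2 scale, were 2.66 for Cxcl1, 2.62 for Ccl4, 1.90 for Maff, 1.71 for Gadd45b, 1.57 for Ier3, 1.30 for Cd14, 1.24 for Atf3, 1.15 for Nfkbiz and 1.01 for Tnfaip3. Their adjusted p-values lay between 2.48e-07 (Ccl4) and 0.0365 (Cd14 and Tnfaip3), and with run as a block 7 of the 9 passed, without Cd14 (adjusted p = 0.0784) and Tnfaip3 (adjusted p = 0.092).

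Between 3 h and 0.5 h the same test set 20 early genes apart. Higher at 3 h were Ccl4 by 2.90, Gadd45b by 1.71, Maff by 1.20, Cd14 and Map3k8 by 1.04 each, Nfkbiz by 1.00 and Rhob by 0.98. The differences of the genes that were lower at 3 h were -2.63 for Fos, -2.34 for Nr4a1, -2.22 for Egr1, -2.18 for Cxcl2, -1.93 for Zfp36, -1.57 for Il1b, -1.54 for Btg2, -1.34 for Tnfsf18, -1.04 for Stk17b, -1.02 for Egr2, -0.88 for Arg2, -0.78 for Gpr65 and -0.76 for Sgk1. With run as a block 9 of the 20 passed: Ccl4, Gadd45b, Maff, Map3k8 and Nfkbiz among the higher and Fos, Egr1, Zfp36 and Btg2 among the lower.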

How the results depend on the processing

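All 39 genes kept their direction in all alternatives, and 715 of 893 gene and setting pairs passed. The count of 39 at 0.5 h was 35 from the 10 arrays alone, 26 within the first run, 33 with runs as a block, 34 with equal spread, 41 after quantile normalization, 41 with probes averaged and 32 at 2-fold or more. It was 89 with array weights (81 higher, 8 lower) and 13 without 0.5 h replicates 1 and 2 (12 higher). Leaving out 1 array gave 21 to 50 genes (21 to 47 higher, 0 to 3 lower); the lowest were without 0.5 h replicate 1 (21) and replicate 2 (22). Tas2r130, the single lower gene, was not called in limma with the 10 arrays, the first run, runs as a block, a replicate block, equal spread, all named probes or trended variance. Nor was it called without 0.5 h replicates 1 and 2, and with only genes on all arrays it was not tested. It passed in 6 of 22 alternatives. The 1 lower gene with runs as a block, and the 1 without replicates 1 and 2, was not Tas2r130. For 1 h against 0.5 h the 106 genes were 40 with equal spread, 56 after quantile normalization, 295 with array weights, 56 without 0.5 h replicates 1 and 2, 97 with runs as a block, 292 within the first run (2 arrays at 1 h), and 55 to 107 without 1 array (65, 70 and 55 without 0.5 h replicates 1, 2 and 3). For 3 h the 1893 genes were 406 with runs as a block, 3625 with array weights, 681 at 2-fold or more, 801 without 0.5 h replicates 1 and 2, and 1178 (without 0.5 h replicate 1) to 2381 without 1 array. Weights, scaling and array number differ between these fits; the cause was not tested further. The run settings at 1 h and 3 h were added after seeing the data. At 1 h the fits with and without runs as a block shared 61 of the 98 higher genes and 1 of the 8 lower ones. The 296 genes without overlap were 299 without centring, 263 with equal spread and 275 with probes averaged, and were not recounted under the others.

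Same-numbered 0.5 h and untreated arrays had deviations correlated at 0.083, -0.188, 0.131 and 0.179. Arrays of other numbers ranged from -0.452 to 0.433. No pairing by number was seen, but so few values cannot exclude it. With a replicate block 27 genes were called (27 higher, 0 lower), 118 at 1 h and 1948 at 3 h against 0.5 h.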
